A study of Homo sapiens with 6 samples.

Results

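The nuclear genes for subunits of the mitochondrial respiratory chain and of ATP synthase were examined for R-loops in HEK293T, an immortalised wild-type line of human embryonic kidney origin. The genes were taken by name from the protein-coding genes of GENCODE release 44 mapped to GRCh37, namely those whose symbols begin with NDUFA, NDUFB, NDUFC, NDUFS or NDUFV and a digit, UQCR, COX4 to COX8, ATP5F1, ATP5M or ATP5P, without the NDUFAF assembly factors. This gave 84 genes of 20176 coding genes, and an R-loop peak was assigned to a gene when it overlapped the gene record or the 2 kb on either side. R-loops had been mapped by spKAS-seq, in which kethoxal labels single-stranded DNA and the strand of the reads is kept, in untreated cells and in cells that took up *N*2-heptynyl-dG, a deoxyguanosine that carries an alkyl group in the minor groove, from medium with 10 μM of it over 3 h. All cells were then exposed to 5 mM N3-kethoxal for 10 min, which reacts with guanine in single-stranded DNA such as the strand that an RNA-DNA hybrid displaces. The labels give 2 samples per condition and 2 inputs, and 1 list of peaks per condition was used here, attached to replicate 1 and taken as the result of both replicates.

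Complex I takes electrons from NADH, complex III passes them from ubiquinol to cytochrome c, complex IV hands them to oxygen, and complex V, the ATP synthase, uses the proton gradient that the others build. Subunits encoded in mitochondrial DNA are not among the genes examined, and neither list holds a peak on the mitochondrial chromosome. The nuclear subunit genes are mostly short and widely transcribed, and many are known targets of NRF-1, GABP (NRF-2, an ETS factor) and YY1. R-loops are known to form where nascent RNA pairs again with its template, often just downstream of transcription starts and beyond polyadenylation sites.

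The lists place each peak on a chromosome and a strand and give no height, so that no test between the conditions could be run and no value has a spread between replicates. Shares are given with 95% Wilson intervals, which cover counting error only, and beside the share of all coding genes under the same rule. A peak whose strand letter is that of the gene is called a gene-strand peak, and one with the other letter an opposite-strand peak. Which DNA strand the letter stands for is not given in the sources used here. A start peak overlapped the 500 bp on either side of the canonical transcript start, and an end peak overlapped the stretch from 500 bp before to 2 kb after the canonical transcript end. Every peak at these genes was a multiple of 250 bp wide, with 500 bp as the smallest width.

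The reference sequence of both kinds of place is shown first, because the peaks over transcript starts and those past transcript ends differed in base composition. The windows at the start reach from 150 bases before the start to 20 bases from it onwards (GRCh37, strand of the gene), and capitals mark 4 motifs described with the promoters later, namely the NRF-1 core GCGCATGCG, its relative TGCGCA, the ETS motif CCGGAAG and the YY1 motif AAGATGGCG, on either strand. Shown are 1 gene of each complex with the largest summed peak width (*NDUFA11*, *UQCR10*, *COX7C* and *ATP5F1C*, of which *UQCR10* is level with *UQCRB* and *ATP5F1C* with *ATP5PB*) and 4 genes with a start peak in 1 list and no peak in the other (*NDUFA9*, *NDUFS4* and *NDUFV2* in untreated cells, *COX5A* after treatment).
*NDUFA11* start (chr19:5903782-5903951, minus strand): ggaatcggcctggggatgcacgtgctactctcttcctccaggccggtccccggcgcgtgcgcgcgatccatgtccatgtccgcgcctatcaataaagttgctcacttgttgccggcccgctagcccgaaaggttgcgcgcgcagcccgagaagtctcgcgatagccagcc
*UQCR10* start (chr22:30163208-30163377, plus strand): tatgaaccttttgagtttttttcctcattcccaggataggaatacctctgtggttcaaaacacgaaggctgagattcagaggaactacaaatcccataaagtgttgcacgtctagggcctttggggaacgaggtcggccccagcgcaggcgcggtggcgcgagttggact
*COX7C* start (chr5:85913608-85913777, plus strand): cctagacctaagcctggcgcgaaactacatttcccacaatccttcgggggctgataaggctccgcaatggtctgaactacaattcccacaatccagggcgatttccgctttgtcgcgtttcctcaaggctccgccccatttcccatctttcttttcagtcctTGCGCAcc
*ATP5F1C* start (chr10:7829990-7830159, plus strand): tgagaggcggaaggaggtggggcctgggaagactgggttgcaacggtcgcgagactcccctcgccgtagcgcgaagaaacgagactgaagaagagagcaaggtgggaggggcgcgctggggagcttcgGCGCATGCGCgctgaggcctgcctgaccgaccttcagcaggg
*NDUFA9* start (chr12:4758130-4758299, plus strand): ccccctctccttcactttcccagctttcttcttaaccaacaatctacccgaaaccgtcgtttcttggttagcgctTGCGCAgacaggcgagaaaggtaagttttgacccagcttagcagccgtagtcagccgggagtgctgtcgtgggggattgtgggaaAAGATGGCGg
*NDUFS4* start (chr5:52856319-52856488, plus strand): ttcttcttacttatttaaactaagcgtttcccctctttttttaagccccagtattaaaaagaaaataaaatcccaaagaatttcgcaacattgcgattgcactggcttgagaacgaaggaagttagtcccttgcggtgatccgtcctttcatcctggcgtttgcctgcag
*NDUFV2* start (chr18:9102547-9102716, plus strand): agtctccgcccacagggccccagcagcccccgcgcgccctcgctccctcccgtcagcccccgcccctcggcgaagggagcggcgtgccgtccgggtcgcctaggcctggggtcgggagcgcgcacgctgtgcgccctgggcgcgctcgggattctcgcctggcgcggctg
*COX5A* start (chr15:75230395-75230564, minus strand): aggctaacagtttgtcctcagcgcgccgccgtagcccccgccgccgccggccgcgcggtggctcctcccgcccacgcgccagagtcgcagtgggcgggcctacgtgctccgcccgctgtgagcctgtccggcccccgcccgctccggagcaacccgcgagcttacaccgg

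The 120 bases at the middle of the untreated end peak are shown for the same genes of complexes IV and V and for complex I, with *NDUFS8* in place of *NDUFA11*, whose stretch overlaps an annotated exon. None of the 3 stretches overlaps an exon of any annotated transcript. Their GC content was 45.8% at *NDUFS8*, 33.3% at *COX7C* and 40.0% at *ATP5F1C*, each below the median of 47.2% for whole untreated end peaks. Over all such stretches free of exons, it ranged from 33.3% at *COX7C* to 65% at *ATP5MJ*. At *UQCR10* of complex III, whose stretch is not printed, it was 53.3%, against 51.2% in its start window.
*NDUFS8* end peak (chr11:67804916-67805035, plus strand): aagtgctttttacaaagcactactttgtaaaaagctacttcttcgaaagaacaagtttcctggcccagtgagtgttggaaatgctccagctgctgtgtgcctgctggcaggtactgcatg
*COX7C* end peak (chr5:85919039-85919158, plus strand): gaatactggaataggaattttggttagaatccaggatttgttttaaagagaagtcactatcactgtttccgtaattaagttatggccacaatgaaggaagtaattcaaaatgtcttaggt
*ATP5F1C* end peak (chr10:7851691-7851810, plus strand): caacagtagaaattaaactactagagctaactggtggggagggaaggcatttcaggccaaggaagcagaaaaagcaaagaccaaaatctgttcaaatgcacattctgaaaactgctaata

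An untreated peak lay at 61 of the 84 subunit genes, or 72.6% (95% Wilson interval 62.3% to 81.0%), against 41.7% of all coding genes. A treated peak lay at 56, or 66.7% (56.1% to 75.8%), against 43.8%. Both lists had a peak at 52 genes, or 61.9% (51.2% to 71.6%), against 36.3% of all coding genes. Untreated cells alone had a peak at 9 genes, or 10.7% (5.74% to 19.1%, background 5.42%), and treated cells alone at 4, or 4.76% (1.87% to 11.6%, background 7.53%). The remaining 19 genes, or 22.6% (15% to 32.6%), had none, against 50.8% of all coding genes. The subunit genes were shorter than coding genes as a whole, with a median length of 11770.5 bp against 27194 bp. Among the 5252 coding genes between 5809 bp and 20250 bp, the interquartile range of the subunit genes, 42.8% had an untreated and 44.4% a treated peak.

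In all, 89 peaks of the untreated list and 83 of the treated list lay at these genes, which is 0.870% of 10231 and 0.749% of 11085 peaks. They covered 89750 bp and 84500 bp. A treated peak was met, by at least 1 bp, by 71 of the untreated ones, or 79.8% (70.3% to 86.8%), against 75.6% of untreated peaks at all coding genes. Of the treated peaks, 71 overlapped an untreated peak, or 85.5% (76.4% to 91.5%), against 70.3%. With a reciprocal overlap of 90% the shares were 37.1% and 39.8%. In 31 cases start, end and strand were the same in both lists. The readthrough genes *ATP5MF-PTCD1* and *NDUFC2-KCTD14* share their peaks with *ATP5MF* and *NDUFC2*, so that 3 untreated peaks and 1 treated peak count at 2 genes. When peaks that overlap the record of any other coding gene were left out, 41 genes had an untreated peak (48.8%, 38.4% to 59.3%, background 30.6%) and 42 a treated one (50%, 39.5% to 60.5%, background 32.3%).

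**Figure D1:**
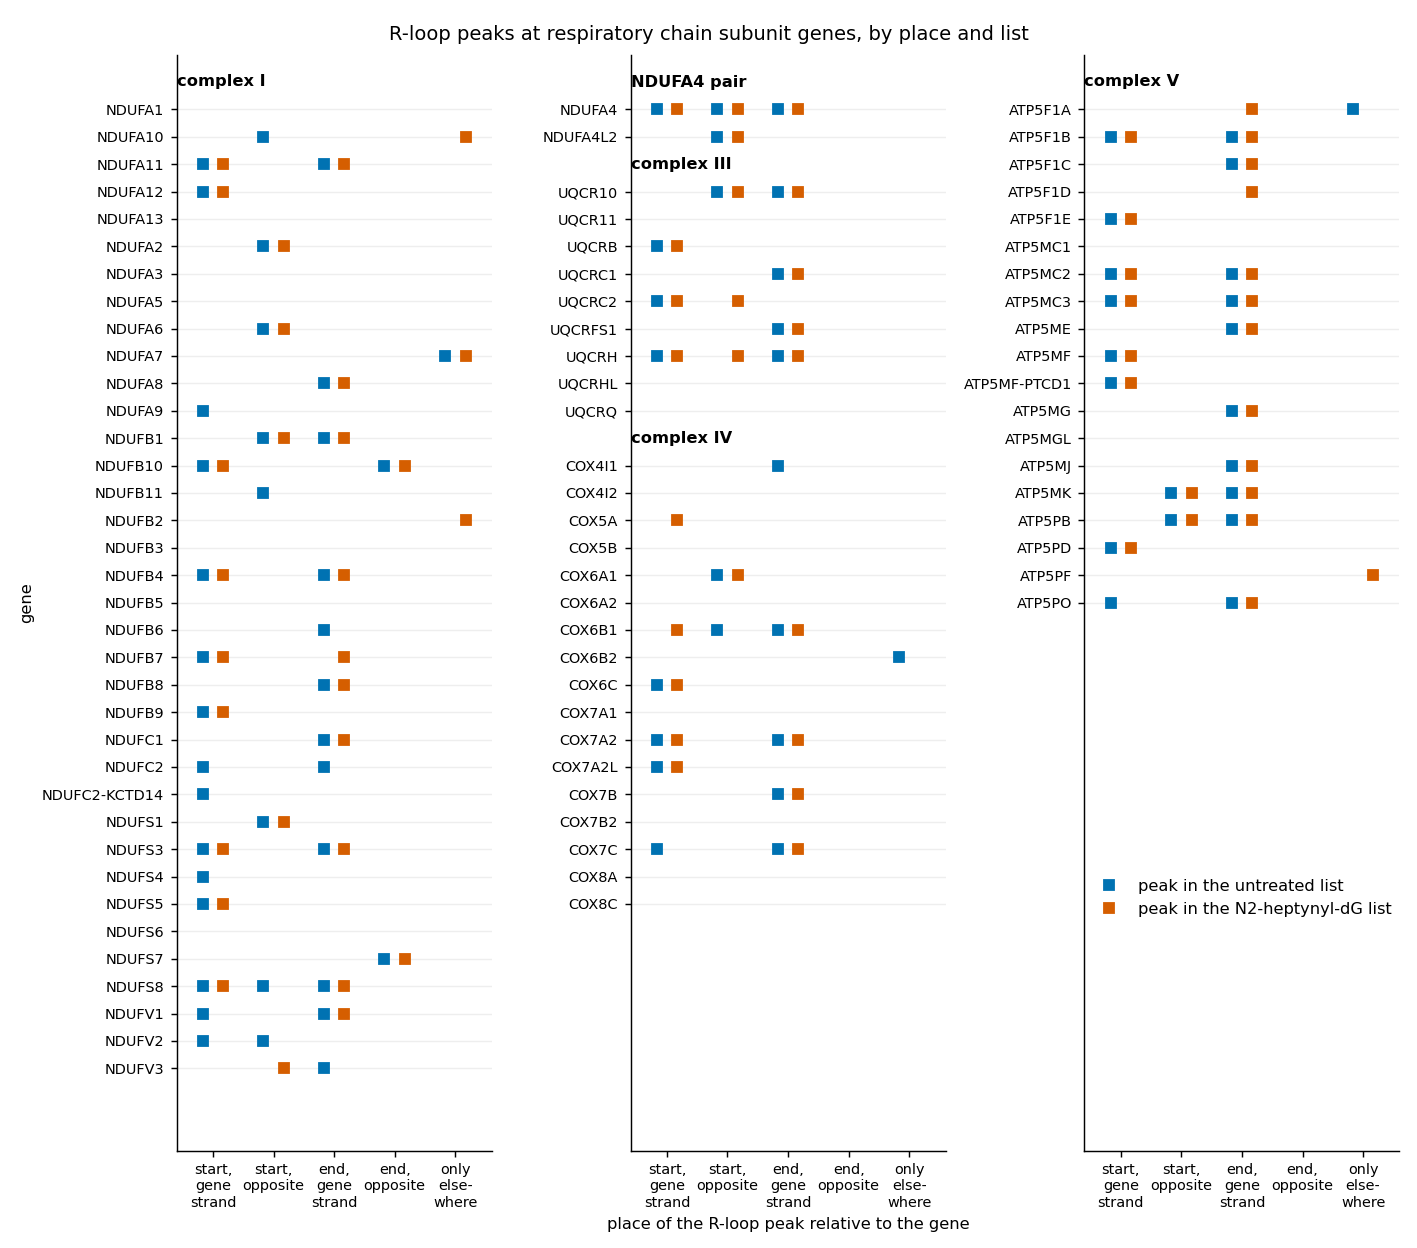
R-loop peaks at 83 of the 84 subunit genes (rows, by complex) by place and strand (columns), with blue squares for the untreated and orange squares for the N2-heptynyl-dG list. The last column marks genes whose peaks in that list lie only at other places, and the 19 rows without a square had no peak in either list.

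Complex I, the largest group with 37 genes, had peaks in both lists at 22 (59.5%, 43.5% to 73.7%, background 36.3%). Among these were core subunits of the arm that reaches into the matrix, namely *NDUFV1*, which binds FMN and takes electrons from NADH, *NDUFS1*, *NDUFS3*, *NDUFS7* and *NDUFS8*. Also among them were the accessory subunits *NDUFA2*, *NDUFA6*, *NDUFA7*, *NDUFA8*, *NDUFA10*, *NDUFA11*, *NDUFA12*, *NDUFB1*, *NDUFB4*, *NDUFB7*, *NDUFB8*, *NDUFB9*, *NDUFB10*, *NDUFC1*, *NDUFS5* and *NDUFV3*. At *NDUFA1*, *NDUFA3*, *NDUFA5*, *NDUFA13*, *NDUFB3*, *NDUFB5* and *NDUFS6* neither list had a peak. *NDUFA4*, named after complex I but known as a subunit of complex IV, and its relative *NDUFA4L2*, which is known as a target of hypoxia signalling, had peaks in both lists. The 7 genes with an untreated peak only (18.9%, 9.48% to 34.2%, background 5.42%) were *NDUFA9*, *NDUFB6*, *NDUFB11*, *NDUFC2*, *NDUFC2-KCTD14*, *NDUFS4* and *NDUFV2*. Among them, *NDUFC2-KCTD14* has the same peaks as *NDUFC2*. *NDUFB2* was the 1 gene with a treated peak only (2.70%, 0.479% to 13.8%, background 7.53%). Complex I thus had an untreated peak at 29 of 37 genes (78.4%, 62.8% to 88.6%, background 41.7%). A treated peak lay at 23 (62.2%, 46.1% to 75.9%, background 43.8%). The intervals of both lists overlap, and the difference was not tested.

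Complex III had peaks in both lists at 6 of 9 genes (66.7%, 35.4% to 87.9%), an interval that holds the background of 36.3%. These were *UQCRFS1*, the Rieske iron-sulfur protein, *UQCRC1* and *UQCRC2*, the core proteins, *UQCRH*, the hinge protein that meets cytochrome c, and the small subunits *UQCRB* and *UQCR10*. There was no peak at *UQCR11*, *UQCRQ* or *UQCRHL*. In complex IV, 7 of 17 genes had peaks in both lists (*COX6A1*, *COX6B1*, *COX6C*, *COX7A2*, *COX7A2L*, *COX7B*, *COX7C*). That share, 41.2% (21.6% to 64%), was near the 36.3% of all coding genes, which lies inside its interval. An untreated peak lay at 52.9% and a treated peak at 47.1% of the complex IV genes (backgrounds 41.7% and 43.8%). *COX4I1* and *COX6B2* had an untreated peak only, *COX5A* a treated peak only, and *COX4I2*, *COX5B*, *COX6A2*, *COX7A1*, *COX7B2*, *COX8A* and *COX8C* had none.

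Complex V had peaks in both lists at 15 of 19 genes (78.9%, 56.7% to 91.5%, background 36.3%). In the catalytic F1 head these were *ATP5F1A*, *ATP5F1B* and *ATP5F1C* (alpha, beta and gamma) and *ATP5F1E* (epsilon), while *ATP5F1D* (delta) had a treated peak only. In the peripheral stalk, *ATP5PB*, *ATP5PD* and *ATP5PO* had peaks in both lists and *ATP5PF* a treated peak only. Of the 3 genes that encode the same c subunit of the proton-driven ring, *ATP5MC2* and *ATP5MC3* had peaks in both lists and *ATP5MC1* had none. The small membrane subunits *ATP5ME*, *ATP5MF*, *ATP5MG*, *ATP5MJ* and *ATP5MK* and the readthrough gene *ATP5MF-PTCD1* had peaks in both lists, and *ATP5MGL* had none. No complex V gene had an untreated peak only. The untreated list thus had a peak at 15 of its 19 genes (78.9%, 56.7% to 91.5%, background 41.7%). The treated list had one at 17 (89.5%, 68.6% to 97.1%, background 43.8%), and these intervals overlap.

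Of 9 isoforms or copies known or annotated as restricted to certain tissues or states (*ATP5MGL*, *COX4I2*, *COX6A2*, *COX6B2*, *COX7A1*, *COX7B2*, *COX8C*, *NDUFA4L2*, *UQCRHL*), 7 had no peak, against 12 of the other 75 genes. The share of the 9 was 77.8% (45.3% to 93.7%), an interval that holds the 50.8% of all coding genes without a peak. The 2 restricted genes with a peak were *NDUFA4L2* and *COX6B2*, and their peaks were on the opposite strand. At *NDUFA4L2* the same 1000 bp on chr12:57629546-57630545 were marked in both lists. At *COX6B2* the 500 bp on chr19:55862432-55862931 lay wholly in an intron and were in the untreated list only. Transcription was not measured in these samples. The genes without a peak were short, with a median length of 4831 bp against 12212.5 bp for those with peaks in both lists.

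The peaks gathered at the 2 ends of the genes, on the strand of the gene. A gene-strand start peak was present at 31 genes in untreated cells (36.9%, 27.4% to 47.6%, background 17.3%) and at 26 after treatment (31.0%, 22.1% to 41.5%, background 19.4%). A gene-strand end peak was present at 33 genes in untreated cells (39.3%, 29.5% to 50%, background 13.0%) and at 32 after treatment (38.1%, 28.4% to 48.8%, background 12.9%). Among coding genes in the interquartile length range of the subunit genes, the share with a gene-strand end peak was 18.6% in both lists. Both places together were marked at 14 genes in untreated and 13 in treated cells (16.7% and 15.5%, backgrounds 4.18% and 4.56%). Opposite-strand start peaks were present at 15 and 13 genes (17.9% and 15.5%, backgrounds 10.1% and 11.0%), and opposite-strand end peaks at 2 genes in each list (2.38%, backgrounds 1.82% and 1.87%).

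**Figure D2:**
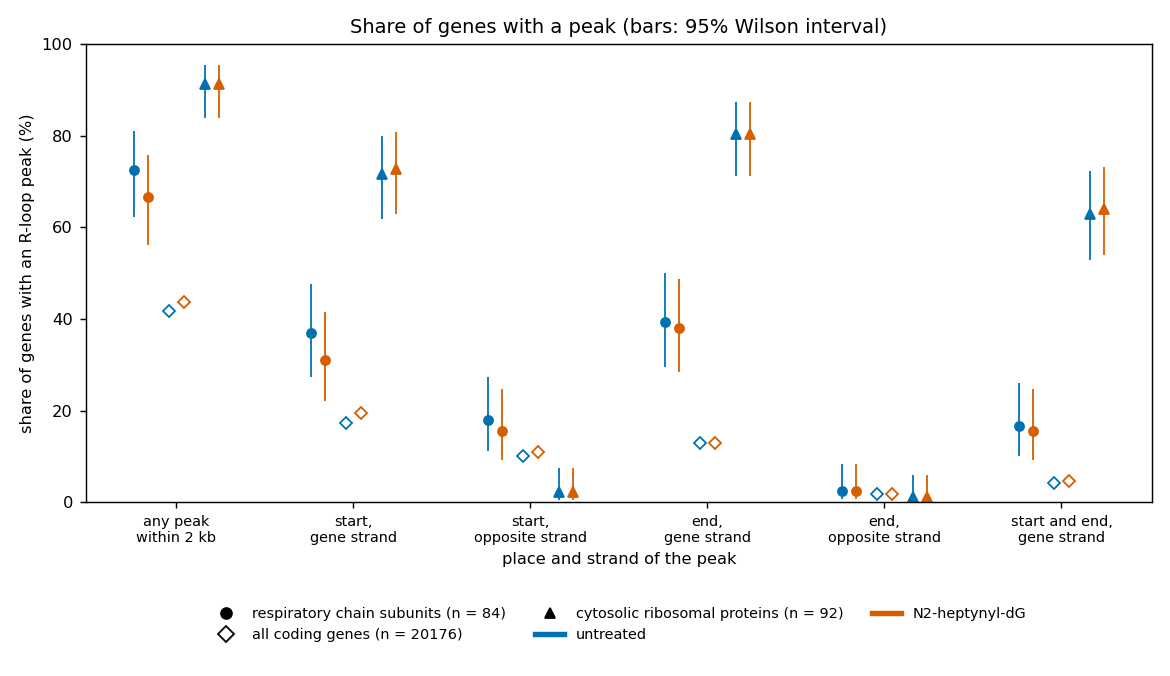
Share of genes with a peak of each kind in percent (y axis) for subunit genes (circles), all coding genes (open diamonds) and cytosolic ribosomal protein genes (triangles), in untreated (blue) and N2-heptynyl-dG-treated cells (orange), with 95% Wilson intervals that cover counting error only. Subunit genes lie above all coding genes for start and end peaks on the gene strand, 36.9% and 31.0% against 17.3% and 19.4% at the start, and both lie below cytosolic ribosomal protein genes there.

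Gene-strand start peaks were narrow and sat on the start. Each counted once, there were 29 of them before and 25 after treatment, with a median width of 500 bp in both, and 28 of the 29 untreated ones covered the canonical start itself. Their midpoint lay 123 bp downstream of the start in the median, from 293 bp upstream to 693 bp downstream. Of the base pairs under the untreated start peaks, 30.1% lay upstream of the canonical start, 17.1% in exons and 52.8% in introns of the canonical transcript. The cover by peaks was highest 50 bp downstream of the start, where 36.9% of the subunit genes were covered in untreated and 30.95% in treated cells. At the height of their own profile, 150 bp downstream, 15.01% and 17.05% of all coding genes were covered.

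**Figure D3:**
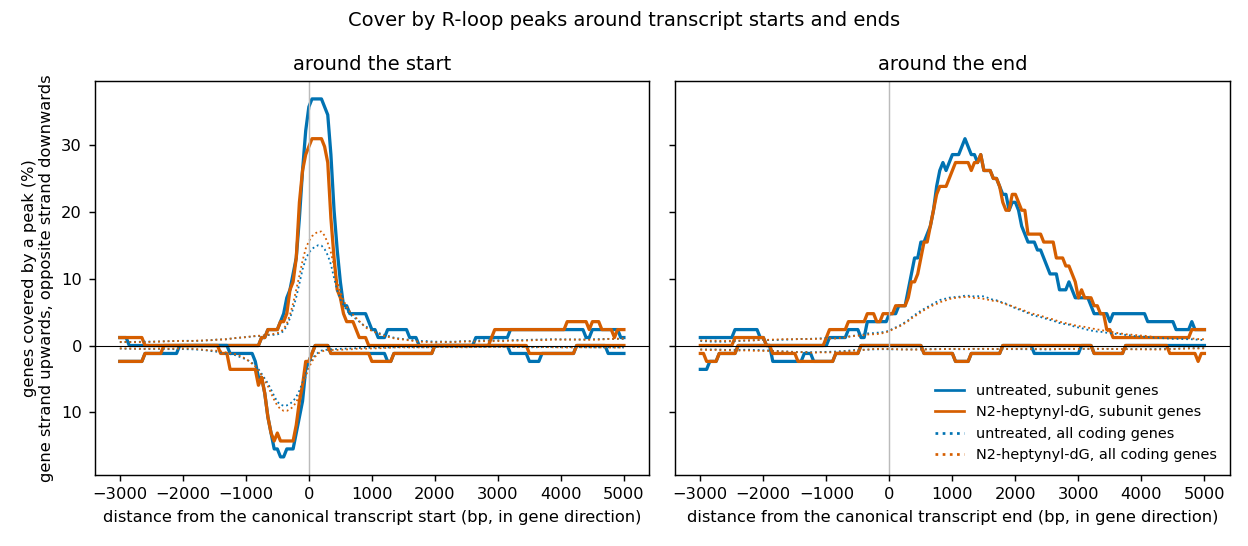
Share of genes covered by an R-loop peak in percent (y axis) by distance in bp from the canonical transcript start (left) and end (right) in the direction of the gene, with gene-strand peaks upwards and opposite-strand peaks downwards. Solid lines are the 84 subunit genes and dotted lines all coding genes, untreated in blue and N2-heptynyl-dG-treated in orange, and the gene-strand cover is highest at 50 bp past the start and at 1200 bp (untreated) or 1450 bp (treated) past the end.

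End peaks were wide and mostly lay past the annotated transcript. Untreated cells had 34 gene-strand end peaks and treated cells 33, with median widths of 1250 bp and 1500 bp, against 1250 bp and 1000 bp over all coding genes. Of the peaks at the subunit genes, 29 and 28 lay wholly beyond the canonical end, and 96.0% and 94.0% of the base pairs of all end peaks were beyond it. The end window, from 500 bp before to 2 kb after the canonical end, favours such places by construction. These shares were not computed over all coding genes. The midpoint was 1339.5 bp past the end in the median of untreated and 1414 bp in that of treated peaks. Cover was highest 1200 bp past the end in untreated cells, at 30.95% of the subunit genes, and 1450 bp past it in treated cells, at 28.57%. The highest cover past the end was 7.474% and 7.301% over all coding genes. Of the end peaks, 10 untreated and 9 treated ones overlapped the record of another coding gene, and 1 in each list covered the canonical start of another one.

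Where a gene had both kinds of peak, the end peak was the wider one. This held for 14 of 14 genes in untreated and 11 of 13 in treated cells, with equal widths at the other 2. Over all coding genes with both kinds, the end peak was wider in 75.7% and 72%. The median GC content of the start peaks was 59.7% in untreated and 61.3% in treated cells, and that of the end peaks 47.2% and 47.9%. Over all coding genes these medians were 62.4% and 63.3% at the start and 50.8% and 51.7% at the end. Complex V held end peaks at 10 of its 19 genes in untreated and 12 in treated cells, complex I at 13 and 11 of 37, complex III at 4 of 9 in each list and complex IV at 5 and 4 of 17. The backgrounds were 13.0% and 12.9% of all coding genes. For complex IV the intervals were 13.3% to 53.1% and 9.56% to 47.3%.

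**Figure D4:**
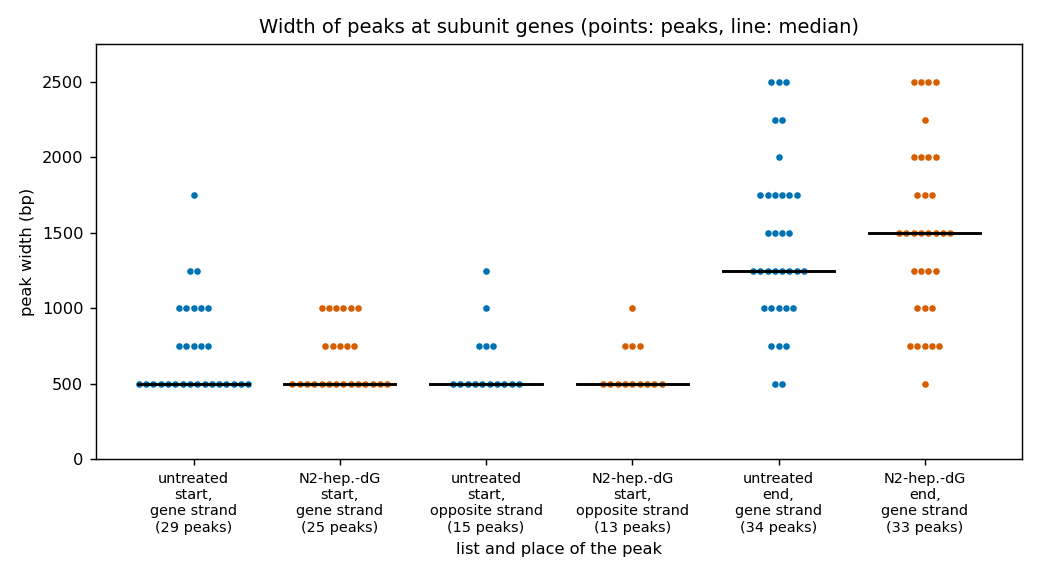
Width in bp (y axis) of each peak at the subunit genes (points) by place, strand and list (x axis), untreated in blue and N2-heptynyl-dG-treated in orange, with each peak counted once and black lines at the medians. Start peaks have a median of 500 bp on either strand, and gene-strand end peaks 1250 bp before and 1500 bp after treatment.

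The widest summed peaks of complex I, over both lists, were at *NDUFA11*, an accessory subunit of the membrane arm. Its start peak on chr19:5903595-5904594, 1000 bp wide, was the same in both lists, and its end peak grew from 2250 bp (chr19:5891845-5894094) to 2500 bp (chr19:5891845-5894344). Both places overlap the record of a further, unnamed coding gene that spans *NDUFA11*. At *NDUFS8* the gene-strand start peak was the same in both lists (chr11:67797976-67798475, 500 bp). Its end peak covered the canonical end and was 2500 bp wide in untreated (chr11:67803726-67806225) and 2250 bp in treated cells. An opposite-strand peak of 500 bp directly upstream of the start, chr11:67797476-67797975, was in the untreated list only. At *NDUFV1* the untreated start peak of 1750 bp (chr11:67374226-67375975), the widest start peak of the subunit genes, had no treated partner, and the end peak was 2500 bp (chr11:67380976-67383475) and 2000 bp wide (chr11:67380976-67382975).

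In complex III, *UQCR10* had an end peak of 1750 bp in untreated (chr22:30166511-30168260) and 1500 bp in treated cells (chr22:30166261-30167760). Its other peak, 750 bp on the opposite strand at chr22:30162511-30163260 in both lists, covered the start of *ZMAT5*, which runs the other way. *UQCRFS1* had 2 end peaks, of which the one past the end was the same in both lists (chr19:29694933-29695932, 1000 bp) and the one inside its last exon was 500 bp (chr19:29696683-29697182) and 750 bp wide. *UQCRB* had the same start peak of 750 bp in both lists (chr8:97247390-97248139). Its second peak lay wholly in exon sequence and was 1500 bp wide in untreated (chr8:97241140-97242639) and 1750 bp in treated cells (chr8:97241140-97242889).

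In complex IV, *COX7C* had a start peak of 1250 bp in untreated cells only (chr5:85913474-85914723). Its end peak was in both lists, with 1750 bp in untreated (chr5:85918224-85919973) and 2000 bp in treated cells (chr5:85918224-85920223). *COX7A2* kept the same end peak of 1500 bp (chr6:75945332-75946831), and its start peak was 500 bp (chr6:75953082-75953581) and 750 bp wide. At *COX6B1* the 2 lists marked neighbouring places on different strands, an opposite-strand peak directly upstream of the start in untreated cells (chr19:36138561-36139060, 500 bp) and a gene-strand peak over the start in treated cells (chr19:36139061-36139560, 500 bp). Its end peak was 1750 bp in untreated (chr19:36150811-36152560) and 1500 bp in treated cells (chr19:36151061-36152560).

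In complex V, the end peak of *ATP5F1C*, which encodes the central stalk that turns inside the head, was 2500 bp wide and had the same borders in both lists (chr10:7850501-7853000), and no start peak was present. *ATP5PB* likewise had the same end peak of 2000 bp in both lists (chr1:112004708-112006707). The opposite-strand peak at its start (chr1:111991458-111991957, 500 bp, both lists) covered the start of *WDR77*. At *ATP5MC2* both places were marked in both lists. The end peak was 1500 bp in untreated (chr12:54056296-54057795) and 1250 bp in treated cells (chr12:54056796-54058045), the start peak 750 bp (chr12:54069546-54070295) and 500 bp (chr12:54069546-54070045). A treated peak of 750 bp on the opposite strand lay about 1 kb upstream of the start (chr12:54070546-54071295).

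Opposite-strand peaks were found upstream of starts. Counted from the start, the midpoint of the 15 untreated ones was at -415 bp in the median, and 88.2% of their base pairs lay upstream of the canonical start. Of the 15 untreated and 13 treated genes with such a peak, 7 in each list had a coding gene on the other strand whose start diverged from theirs within 1 kb. A coding start on the other strand within 1 kb, on either side, was present at 24 of the 84 subunit genes, or 28.6%, against 9.94% of all coding genes. Under this wider rule the share was 24.0% and 23.8% of all coding genes with an opposite-strand start peak. Among the 24 is *NDUFC1*, where the start of *NAA15* lies inside the gene and does not diverge. At *NDUFB1* the opposite-strand peak of 500 bp lay over the start of *CPSF2*, on chr14:92588017-92588516 in untreated and chr14:92588267-92588766 in treated cells, and the gene-strand end peak was 1750 bp (chr14:92580017-92581766) and 2500 bp wide (chr14:92579517-92582016). At *ATP5MK* the same 750 bp over the start of *PDCD11* were marked in both lists (chr10:105156149-105156898), and its end peak was 750 bp (chr10:105146149-105146898) and 1000 bp wide (chr10:105145899-105146898).

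Other genes had an opposite-strand start peak without a diverging coding start within 1 kb. At *NDUFA4* an opposite-strand peak of 500 bp (chr7:10980001-10980500) overlapped the upstream part of the gene-strand start peak of 1000 bp (chr7:10979251-10980250), with the same borders in both lists, and the end peak was 1250 bp in untreated (chr7:10969501-10970750) and 1500 bp in treated cells (chr7:10969751-10971250). At *NDUFV2*, which binds an iron-sulfur cluster beside *NDUFV1*, both peaks were in the untreated list only. One lay on the opposite strand (chr18:9102107-9102606, 500 bp) and the other, directly beside it, on the gene strand over the start (chr18:9102607-9103106, 500 bp). At *UQCRC2* the gene-strand start peak of 500 bp was the same in both lists (chr16:21964501-21965000), an opposite-strand peak of 500 bp directly upstream was in the treated list only (chr16:21964001-21964500), and an intronic gene-strand peak of 1000 bp was in the untreated list only (chr16:21972251-21973250). *UQCRH*, whose start diverges from that of *LRRC41*, showed the same layout. Its gene-strand start peak was in both lists (chr1:46769174-46769673, 500 bp), the opposite-strand peak upstream in the treated list only (chr1:46768674-46769173, 500 bp), and its end peak was 1000 bp (chr1:46782924-46783923) and 750 bp wide (chr1:46783174-46783923).

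The remaining genes with peaks on both strands were *ATP5F1A*, *NDUFB10* and *NDUFV3*. At *NDUFB10* the gene-strand start peak (chr16:2009501-2010000, 500 bp) was the same in both lists. An opposite-strand peak inside the gene was 750 bp in untreated (chr16:2010751-2011500) and 1000 bp in treated cells (chr16:2010501-2011500), and another of 750 bp past its end lay in both lists over the convergent gene *RPS2* and the small nucleolar RNA *SNORA64* (chr16:2013001-2013750). *NDUFV3* had a peak in each list, but these did not overlap, with an end peak of 1250 bp in untreated (chr21:44333743-44334992) and an opposite-strand start peak of 500 bp in treated cells (chr21:44312743-44313242). At *ATP5F1A* an opposite-strand peak in the record of *HAUS1* was the same in both lists (chr18:43684357-43684856, 500 bp), and an end peak of 750 bp was in the treated list only (chr18:43657607-43658356).

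Whether the treatment changed which genes carried a peak is the comparison that the design implies, and the 13 genes with a peak in 1 list only are its content here. They held 14 peaks, each counted once, and 10 of these were 500 bp wide, the smallest width in the lists. Among all peaks at the subunit genes, 34.8% of untreated and 32.5% of treated ones had this width, against 41.4% and 42.5% at all coding genes. In the untreated list only, *NDUFA9* and *NDUFS4*, both accessory subunits of complex I, had a gene-strand start peak of 500 bp (chr12:4758251-4758750 and chr5:52856325-52856824). The peak at *NDUFA9* overlaps 2 further coding gene records and covers the start of 1 of them. *NDUFC2* had a start peak of 500 bp (chr11:77790447-77790946) and an end peak of 1250 bp (chr11:77778447-77779696), which also lies in an intron of *NDUFC2-KCTD14* and overlaps *THRSP*. *COX4I1*, the usual form of the regulatory subunit of complex IV, had an end peak of 1000 bp (chr16:85841048-85842047), and *NDUFB6* one of 500 bp (chr9:32551751-32552250) that overlaps *SMIM27* and *TOPORS*. At *NDUFB11* the peak was on the opposite strand and covered the start of *RBM10* (chrX:47004501-47005000, 500 bp).

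In the treated list only, *COX5A*, a subunit on the matrix side of complex IV, had a gene-strand start peak of 1000 bp (chr15:75229633-75230632). *ATP5F1D* had an end peak of 750 bp (chr19:1245845-1246594), and *NDUFB2* a gene-strand peak of 500 bp whose midpoint was 2378 bp past the canonical end (chr7:140408572-140409071). At *ATP5PF* the peak was on the opposite strand, in the record of *GABPA*, the DNA-binding part of GABP (chr21:27107998-27108497, 500 bp). With 1 list per condition, a peak missing from a list cannot be told apart from one that fell short of the limit of detection, since the depth behind each peak is unknown.

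Gene-strand start peaks were in both lists at 23 genes, in the untreated list only at 8 and in the treated list only at 3 (27.4%, 9.52% and 3.57%). Over all coding genes these shares were 14.2%, 3.09% and 5.25%. The 8 were *ATP5PO*, *COX7C*, *NDUFA9*, *NDUFC2*, *NDUFC2-KCTD14*, *NDUFS4*, *NDUFV1* and *NDUFV2*, and the 3 included *COX5A* and *COX6B1*. In complex I, start peaks were at 15 genes in untreated cells (40.5%, 26.3% to 56.5%, background 17.3%). After treatment they were at 10 (27.0%, 15.4% to 43%, background 19.4%), and these intervals overlap. In the other complexes together with *NDUFA4* they were at 16 in each list. Gene-strand end peaks were in both lists at 29 genes, in the untreated list only at 4 (*COX4I1*, *NDUFB6*, *NDUFC2*, *NDUFV3*) and in the treated list only at 3 (*ATP5F1A*, *ATP5F1D*, *NDUFB7*). The end shares were 34.5%, 4.76% and 3.57%, against 10.5%, 2.47% and 2.43% of all coding genes. Of the untreated gene-strand peaks, 22 of 29 at the start (75.9%, 57.9% to 87.8%) and 30 of 34 at the end (88.2%, 73.4% to 95.3%) overlapped a treated peak, against 82.4% and 80.4% at all coding genes. Of the treated ones, 22 of 25 at the start (88.0%, 70.0% to 95.8%) and 30 of 33 at the end (90.9%, 76.4% to 96.9%) overlapped an untreated peak, against 73.7% and 80.4%. Within each list the intervals for starts and ends overlap, and whether starts and ends differ was not tested.

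Where a peak was in both lists, its width moved in either direction. Among 71 pairs at the subunit genes, 19 gained width with treatment, 18 lost width and 34 stayed equal. Of 22 pairs of gene-strand start peaks, 3 gained, 4 lost and 15 kept their width. Of 30 pairs of gene-strand end peaks, 13 gained, 10 lost and 7 kept their width, with a median change of 0 bp, a mean of 100 bp and a range from -500 to 1500 bp. Over 2012 such pairs at all coding genes, 30.2% gained, 35.2% lost and 34.6% kept their width. The widest gain was at *COX7B*, a small subunit of complex IV encoded on chromosome X, where the end peak grew from 1000 bp (chrX:77163331-77164330) to 2500 bp (chrX:77161831-77164330) and then covered the canonical end. *UQCRC1* gained 750 bp (750 to 1500 bp), as did *NDUFB1*, while *ATP5MC3*, *NDUFB8* and *NDUFV1* lost 500 bp each. The borders have a grain of 250 bp, and how far they move between replicates is unknown.

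**Figure D5:**
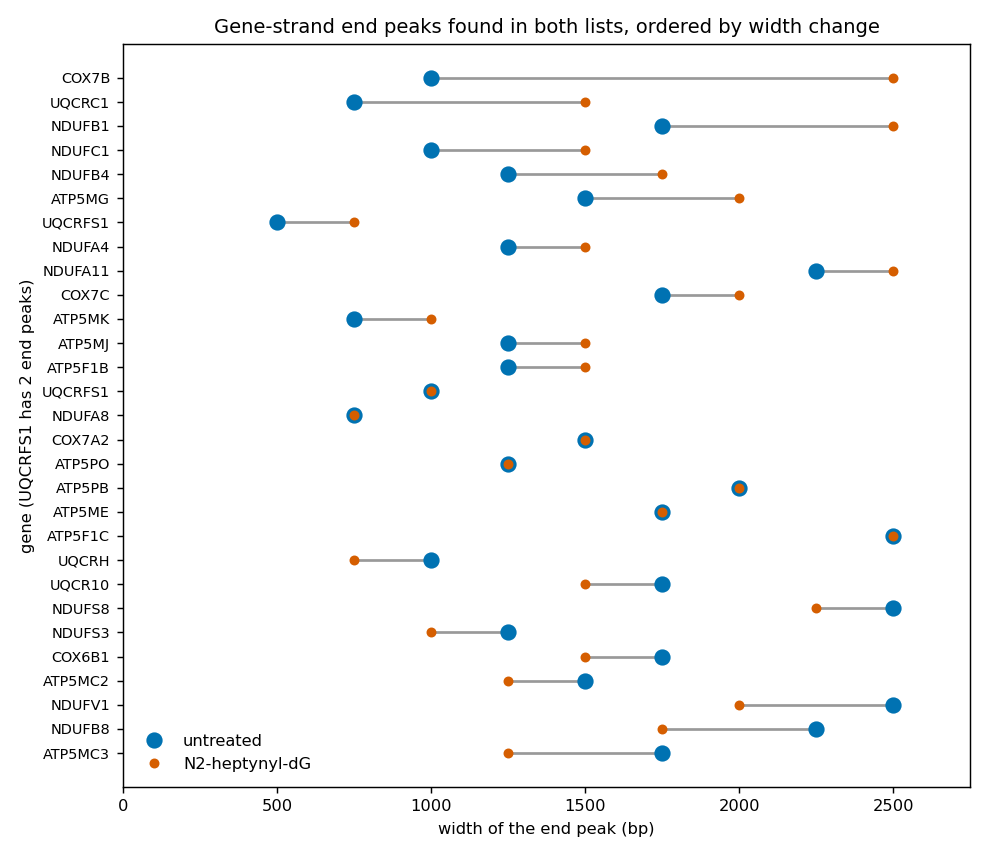
Width in bp (x axis) of 29 of the 30 gene-strand end peaks found in both lists, 1 row per pair, with large blue points for untreated and small orange points for N2-heptynyl-dG-treated cells, ordered by the change. Wider pairs (13) stand above the 7 equal and the 9 narrower ones shown, and the longest line is that of COX7B, from 1000 to 2500 bp.

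The promoters of the subunit genes, taken from 250 bp before to 50 bp after the canonical start, had a median GC content of 60%, against 63.7% for all 20152 coding genes with a sequence in this window. Searching both strands, GCGCATGCG was found in 9 of the 84 (10.7% against 2.69% of all promoters) and TGCGCA, which reads the same on both strands and can overlap the core, in 20 (23.8% against 10.8%). CCGGAAG was found in 22 (26.2% against 14.0%) and AAGATGGCG in 9 (10.7% against 2.82%). In the printed windows, *ATP5F1C* holds GCGCATGCG on both strands in overlap, 22 bases before its start, *NDUFA9* holds TGCGCA 75 bases before and AAGATGGCG 10 bases after its start, and *COX7C* holds TGCGCA 12 bases after it. The 34 genes with a gene-strand start peak in either list and the 50 without one held GCGCATGCG in 2 and 7 promoters, TGCGCA in 7 and 13, CCGGAAG in 7 and 15, and AAGATGGCG in 3 and 6. In percent, these were 5.88% and 14.0%, 20.6% and 26.0%, 20.6% and 30.0%, and 8.82% and 12.0%. These shares rest on few promoters, and whether genes with and without a start peak differ was not tested. Over all coding genes the motifs were more frequent in promoters with a gene-strand start peak than in those without, at 4.43% and 2.18%, 15.1% and 9.53%, 21.2% and 11.9%, and 4.47% and 2.34%. The median GC content was 58.7% in subunit promoters with a start peak and 61% in those without. A match is a run of letters and was not checked for binding.

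Other genes of the pathway carried peaks too. Of all coding genes, 36.3% had a peak in both lists, 5.42% in the untreated list only and 7.53% in the treated list only. The lists below are small, and whether they differ from these shares or from the subunit genes was not tested. Of 8 further genes of the chain and ATP synthase that the rule by name leaves out, among them those of complex II, 6 had peaks in both lists (*SDHA*, *SDHB*, *SDHD*, *CYCS*, *NDUFAB1*, *ATP5IF1*) and *SDHC* and *CYC1* had none. Of 34 assembly factors, 22 had peaks in both lists, *NDUFAF8* and *UQCC2* an untreated peak only, *SCO1* a treated peak only, and 9 none. Of 12 regulators, 6 had peaks in both lists, among them *TFAM*, which packages mitochondrial DNA. *NRF1*, *YY1* and *CREB1* had an untreated peak only, *GABPA* a treated peak only (the one shared with *ATP5PF*), and *POLRMT* and *PPARGC1A* none.

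Set beside other groups of widely expressed genes, the subunit genes were near the mitochondrial ribosomal proteins and below the cytosolic ones. Of 92 cytosolic ribosomal protein genes, 84 had a peak in each list (91.3%, 83.8% to 95.5%), an interval above that of the subunit genes in both lists. Their gene-strand end peaks were at 74 genes in each list (80.4%), and 58 and 59 genes had both a start and an end peak. Of 78 mitochondrial ribosomal protein genes, 52 had an untreated (66.7%, 55.6% to 76.1%) and 56 a treated peak (71.8%, 61.0% to 80.6%), with end peaks at 30 and 26. Of 40 proteasome subunit genes, 22 had a peak in each list (55%, 39.8% to 69.3%), with end peaks at 14. The proteasome interval holds the shares of all coding genes with a peak, 41.7% untreated and 43.8% treated. Gene-strand end peaks were at 13.0% and 12.9% of all coding genes, and start and end peaks together at 4.18% and 4.56%. The intervals of the mitochondrial ribosomal protein and proteasome genes overlap those of the subunit genes. Opposite-strand start peaks were at 2 of the 92 cytosolic ribosomal protein genes (2.17%, 0.598% to 7.58%) in each list. That interval lies below that of the subunit genes in both lists and below the 10.1% and 11.0% of all coding genes.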

How the data were processed

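R-loops were mapped by spKAS-seq in HEK293T cells without or with *N*2-heptynyl-dG. According to the study's methods, reads were trimmed (Trim Galore), mapped to hg19 (Bowtie2) and freed of duplicates (Picard), and the authors took R-loops by a published definition over 2 replicates. The deposited lists hold peak positions in 4 columns (chromosome, start, end, strand) and no score, signal or count, so the depth per sample and per peak is unknown. Inputs, signal tracks and reads were not used here.

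Positions were converted to 1-based coordinates and set against GENCODE release 44 mapped to GRCh37, which is the assembly of hg19. The Ensembl canonical transcript gave start and end, except at *NDUFB6*, which has none and where the longest coding transcript was used (83 of 84 genes have one). Peaks counted as shared between lists from 1 bp of overlap without regard to strand, and widths were compared between peaks that overlap exactly 1 peak of the other list on the same strand. Peaks at 2 genes were counted once in counts of peaks. The genes, gene lists, windows and motifs were chosen with earlier results of these data known. Every gene was named with its state, except 1 that is not reported by name here, and coordinates were given for the genes whose state differs between the lists, the 3 widest of each complex by summed width and those with peaks on both strands. *COX7B* and other genes named for a change in width, and the genes named as start or end peaks of 1 list, were chosen after their values were seen.

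No test was run, since there is 1 list per condition, peaks and genes are not replicates, and no spread can be estimated. Assignment of peaks was tested on simulated data with a peak at a known place of 400 genes, of which 0 were assigned wrongly, and the number of shared peaks was checked against bedtools 2.31.1. Python 3.11.15, numpy 2.4.6, pysam 0.24.0, samtools 1.23.1 and matplotlib 3.10.9 were used. Alternatives to the windows, strand, overlap, width and gene set were computed.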

Additional observations from a re-analysis of the deposited data

How the results depend on the processing

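No paired analysis was possible because only 1 list per condition was used and nothing was tested, and no replicate could be left out for the same reason. For 17 results, 92 values were recomputed. Of these, 65 were within 1.5 times the first count or inside the interval of the first share, and 27 moved. The alternatives for end peaks, for genes of similar length and, over all coding genes, for peaks that overlap another gene were added after the data had been seen.

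With the gene record alone, genes with a peak in both lists were 31 and genes with a treated peak only 7. Within 1 kb of the canonical start, 34 genes had a peak in both lists. A 90% reciprocal overlap left 37.1% of untreated and 39.8% of treated peaks shared. When peaks narrower than their list's median were dropped, 86.2% and 83.9% were on the gene strand. The share of untreated peaks over a transcript start, 43.8%, was 33.7% with the canonical transcript only and 56.2% with starts within 500 bp, and for treated peaks, 37.3%, it was 54.2% with starts within 500 bp.

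Most shares of all coding genes left their narrow intervals. An untreated and a treated peak were at 31.7% and 34.1% with the gene record alone, 45.4% and 47.6% with 5 kb on either side, 26.3% and 28.7% within 1 kb of the canonical start, 31.6% and 33.2% with gene-strand peaks only, and 30.6% and 32.3% without peaks that overlap another coding gene. Among genes of similar length, 42.8% had an untreated peak. The share with a gene-strand end peak was 9.17% and 8.99% with 1 kb after the end, 16.5% and 16.9% with 5 kb, and 18.6% in both lists among genes of similar length. At the subunit genes, end peaks were at 25 and 22 genes with 1 kb and at 38 and 36 with 5 kb. They were at 23 in each list without peaks that overlap a coding gene outside the subunit genes. For this last rule the share of all coding genes was not computed. Wider windows and fewer peaks change these values by construction. Otherwise the cause was not tested. The depth behind the peaks is unknown.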
